A study of Mus musculus with 3 samples.

Results

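SOX proteins are transcription factors that bind DNA through a shared HMG box, and they fall into groups by the sequence of that box. The SoxB1 genes Sox1, Sox2 and Sox3 act in pluripotent cells and neural progenitors, and Sox2 binds DNA together with the POU factor encoded by Pou5f1. The SoxF genes Sox7, Sox17 and Sox18 act in endoderm and in the vascular lineage, with Sox17 required for definitive endoderm, the layer that lines the gut. Of the other genes described here, Sox4 and Sox11 are SoxC genes of embryonic and neuronal progenitors, Sox15 belongs to the SoxG group and is made in ES cells, and Sox21 is a SoxB2 gene that counters SoxB1 factors in neural progenitors. These 10 genes were picked by symbol from the gene table, in which 20 genes carry a SOX family name among 55487 entries. Each of the 10 had at least 10 counts in at least 1 library.

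The cells were wild-type E14K mouse ES cells, grown without LIF as embryoid bodies (EBs), first in hanging drops and then in suspension. EBs are aggregates in which the first embryonic lineages appear in culture. The libraries came from DMSO EBs of day 3, DMSO EBs of day 4 and C2 ceramide EBs of day 4, where C2 ceramide, a short ceramide that enters cells, was given at 30 μM from the start of day 3. The GEO labels call the DMSO libraries controls, and the study names DMSO as the vehicle. There was 1 library per condition and no replicate, so no test between conditions was possible and each difference is given by its size. Levels are in TPM, transcripts per 1000000, which are scaled for transcript length, beside estimated counts. A TPM ratio above 2 counts as a higher call and one below 0.5 as a lower call, and intervals are 95% intervals of the log2 ratio from the counts, which cover counting error and not the spread between cultures. Total counts ran from 33619197 to 35290094, mitochondrial transcripts made up 0.651% to 0.768% of the counts, and the median log2 ratio over the 17655 genes with at least 10 counts was 0.05 for DMSO day 4 against DMSO day 3, −0.03 for C2 ceramide against DMSO on day 4, and 0.03 for C2 ceramide against DMSO day 3. The pluripotency factor gene Pou5f1 was at 948.6, 628.2 and 911.3 TPM on DMSO day 3, on DMSO day 4 and with C2 ceramide, and values of the 3 libraries keep that order throughout. In bulk RNA of this kind, fewer cells of a type and less RNA per cell cannot be told apart.

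The balance between SoxB1 and SoxF transcripts turned over on DMSO day 4 and not with C2 ceramide. On DMSO day 3, SoxB1 genes summed to 111.9 TPM and SoxF genes to 1.33 TPM. On DMSO day 4 the sums were 53.2 TPM for SoxB1 and 254.1 TPM for SoxF, so SoxF transcripts exceeded those of SoxB1 by 4.78 times. In counts, which are not scaled for length, SoxB1 had 2589 and SoxF 8472 in that library. The Sox17 part of the SoxF TPM rests on an estimated split between its transcripts, so the size of the TPM ratio does too. With C2 ceramide on day 4 the sums were 129.8 and 3.48 TPM, and SoxB1 exceeded SoxF by 37.2 times, against 84.3 times on DMSO day 3. As a share of the TPM of the 20 SOX family genes, SoxB1 made up 53.0%, 12.2% and 54.0%, and SoxF 0.628%, 58.2% and 1.45%. The SoxC genes Sox4 and Sox11 together made up 22.3%, 19.4% and 20.4%, with Sox12, also a SoxC gene, counted apart. The family summed to 211.3, 436.5 and 240.2 TPM in the order of the libraries. Both sums lean on a single gene: Sox2 supplied 91.3% to 96.2% of SoxB1, and Sox17 supplied 99.8% of SoxF on DMSO day 4 but 38.8% on DMSO day 3 and 64.9% with C2 ceramide.

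**Figure D1:**
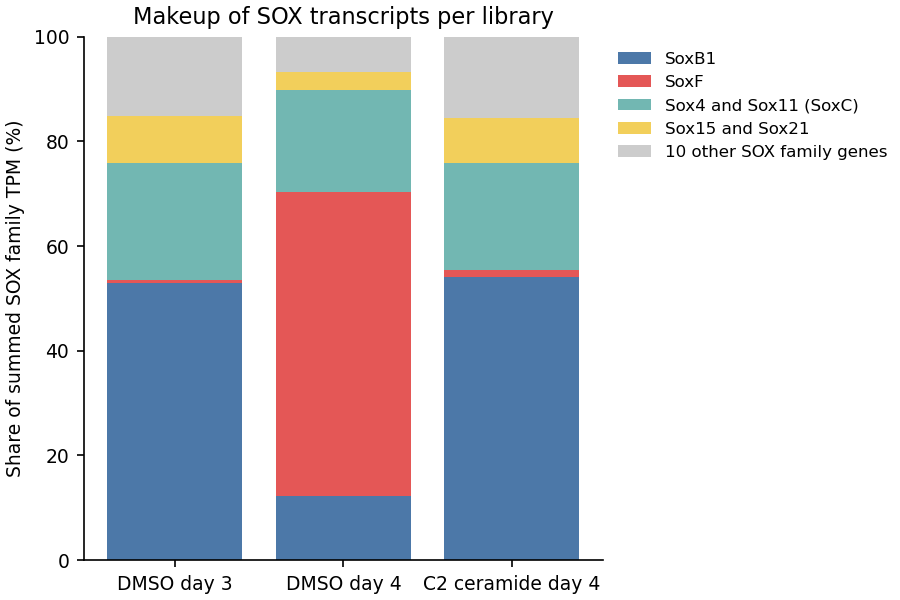
Share of the summed TPM of 20 SOX family genes (vertical, %) taken by each group in each of the 3 libraries, with 1 bar per library. SoxF takes 58.2% of the DMSO day 4 bar and under 2% of the others, while SoxB1 takes 53.0% and 54.0% of the bars at the sides and 12.2% of the middle bar.

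Of the 10 genes, 2 were called higher on DMSO day 4 than on DMSO day 3 (Sox17 and Sox21) and 3 were called lower (Sox3, Sox7 and Sox18). Among all 17655 genes, 12.8% were called higher and 9.45% lower in that comparison. In either direction the background was 22.3%. Sox2, Sox4, Sox11 and Sox15 lay within 2-fold, and Sox1 had 0 counts in both libraries. With C2 ceramide against DMSO on day 4, 4 genes were called higher (Sox1, Sox2, Sox3 and Sox7) and 1 lower (Sox17), where 9.97% of all genes were called higher and 12.3% lower, again 22.3% together. Against DMSO day 3, C2 ceramide gave 4 genes called higher (Sox1, Sox7, Sox17 and Sox21) and none called lower, with 11.2% and 9.39% of all genes called, or 20.6% in either direction. Sox17 was the 1 member called higher on DMSO day 4 and then lower with C2 ceramide, a course shared by 6.65% of all genes, and Sox3 and Sox7 were called in the reverse course, shared by 4.94%. The members' median log2 ratio was −0.68 between the DMSO days (9 genes, without Sox1), 0.59 for C2 ceramide against DMSO on day 4, and 0.15 for C2 ceramide against DMSO day 3. The first and second comparisons share the DMSO day 4 library, so their directions are not independent of each other.

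**Figure D2:**
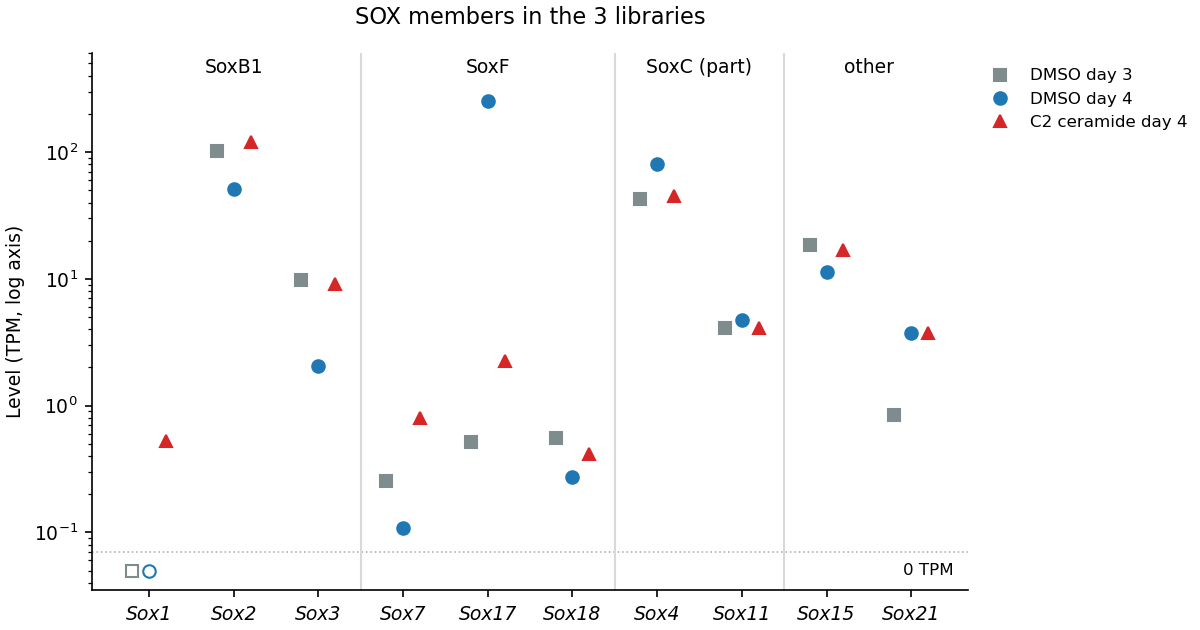
Level of each of the 10 SOX genes (vertical, TPM on a log axis) in DMSO day 3 (grey squares), DMSO day 4 (blue circles) and C2 ceramide day 4 (red triangles), with open symbols for 0 TPM and 1 library per condition. Sox17 at 253.7 TPM on DMSO day 4 stands above its other values of 0.515 and 2.26 TPM, and Sox2 and Sox3 have their lowest points on DMSO day 4.

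Stretches upstream of 3 of these genes are shown because the genes followed different courses: Sox2 was lowest on DMSO day 4, Sox4 was highest there, and Sox21 was high on day 4 with and without C2 ceramide. The sequences come from the RefSeq start sites on GRCm38.p6, where 6 of the 10 genes had an entry, and bases inside the deposited gene model were left off. The Sox4 and Sox21 stretches end at the deposited gene model, while that of Sox2 ends 410 bases before it. They run 5′ to 3′ on the gene's strand, and capitals mark any of 5 short motifs on either strand: ACAAT and ACAAAG, which SOX proteins can bind and of which the second is also a TCF/LEF site, TATAAA (the TATA box), GGGCGG (the GC box) and CCAAT (the CCAAT box).
Sox2, chr3:34649745-34649994, plus strand: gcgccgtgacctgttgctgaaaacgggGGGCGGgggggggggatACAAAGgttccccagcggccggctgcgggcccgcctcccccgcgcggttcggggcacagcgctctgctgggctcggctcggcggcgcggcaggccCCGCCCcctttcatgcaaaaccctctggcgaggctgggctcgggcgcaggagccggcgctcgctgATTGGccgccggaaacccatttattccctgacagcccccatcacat
Sox4, chr13:28953714-28953949, minus strand: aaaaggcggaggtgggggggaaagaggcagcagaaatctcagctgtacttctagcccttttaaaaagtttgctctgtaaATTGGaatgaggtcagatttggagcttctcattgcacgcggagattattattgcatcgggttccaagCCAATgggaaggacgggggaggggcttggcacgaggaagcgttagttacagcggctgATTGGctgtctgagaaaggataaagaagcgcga
Sox21, chr14:118237031-118237280, minus strand: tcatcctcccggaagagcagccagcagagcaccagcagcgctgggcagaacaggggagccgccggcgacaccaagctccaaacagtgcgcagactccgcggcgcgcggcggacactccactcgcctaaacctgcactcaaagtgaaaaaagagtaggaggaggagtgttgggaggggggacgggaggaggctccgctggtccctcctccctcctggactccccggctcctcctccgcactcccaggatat
The Sox2 stretch held 1 CCAAT box, 2 GC boxes and 1 ACAAAG match, with 27 CpG dinucleotides in its 250 bases. The Sox4 stretch of 236 bases held 3 CCAAT boxes and 10 CpG dinucleotides. In the 250 bases shown for Sox21 none of the 5 motifs occurred, and there were 17 CpG dinucleotides. For comparison, the median over 32851 RefSeq upstream windows of 250 bases was 6 CpG dinucleotides. Across these windows 33.8% held a CCAAT box, 32.7% a GC box, 12.4% a TATA box, 27.7% ACAAT and 16.5% ACAAAG. No motif matches overlapped each other in the stretches shown, and a match describes the letters, not a bound site.

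Sox2, a core factor of pluripotency and of neural progenitors, is a gene of 1 exon on chromosome 3 (GRCm38, 34650405 to 34652461). Its level was 102.2, 51.2 and 120.2 TPM, drawn from 4854, 2489 and 5841 counts. The DMSO day 4 library was thus low and the others were close to each other. DMSO day 4 was at 0.501 times DMSO day 3, or −0.998 on the log2 scale (interval −1.07 to −0.928), just inside the threshold for a lower call. The C2 ceramide level was 2.35 times that of DMSO on day 4, which is 1.23 on the log2 scale (interval 1.16 to 1.30), and at a log2 ratio of 0.23 (interval 0.18 to 0.29) to DMSO day 3.

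For Sox3, the X-linked SoxB1 gene of the epiblast and neural plate, a similar course had a wider range. Its level was 9.72, 2.04 and 9.03 TPM, from 468, 100 and 444 counts, in 1 exon on chromosome X from 60891366 to 60893430. The low value again belonged to DMSO day 4. Between the DMSO days the log2 ratio was −2.25 (interval −2.58 to −1.94), and C2 ceramide against DMSO on day 4 gave 2.15 (interval 1.83 to 2.47). C2 ceramide day 4 and DMSO day 3 differed by a log2 ratio of −0.11 (interval −0.30 to 0.08), so a difference in Sox3 between these libraries was not detectable beyond counting error. Sox2 exceeded Sox3 by 10.5 times on DMSO day 3, 25.1 times on DMSO day 4 and 13.3 times with C2 ceramide.

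Sox1, which is switched on as the neural plate forms, followed neither of them. No count was assigned on DMSO day 3 or DMSO day 4, and C2 ceramide gave 66 counts, equal to 0.524 TPM. Taking a floor of 3 counts per library, C2 ceramide was at least 21.9-fold higher than DMSO on day 4 and at least 20.96-fold higher than DMSO on day 3. Even so, Sox1 was at a small fraction of the other SoxB1 levels in the same library, with Sox3 at 9.03 TPM and Sox2 at 120.2 TPM. Sox1 consists of 1 exon on chromosome 8 (positions 12395295 to 12400126) and lies inside the noncoding gene Sox1ot on the same strand, which had 0, 1 and 4 counts. A microRNA gene, Gm25239, also overlaps it and was listed at 0 in each library. Sox2 in turn lies inside the noncoding gene Sox2ot, at 9, 10 and 20 counts. Sox2ot thus had far fewer counts than Sox2 in each library, and Sox1ot fewer than Sox1 with C2 ceramide.

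Sox17, the SoxF gene of definitive endoderm and of arterial endothelium, had the widest range of the 10 genes. Levels of 0.515, 253.7 and 2.26 TPM came from 19, 8451 and 86 counts. DMSO day 4 was far above the others, by a log2 ratio of 8.94 (interval 8.30 to 9.68) over DMSO day 3, or 493-fold. C2 ceramide over DMSO on day 4 gave a log2 ratio of −6.81 (interval −7.13 to −6.50), which is 0.00891 times the DMSO level. Set against DMSO day 3, the C2 ceramide library was still above it, by a log2 ratio of 2.13 (interval 1.41 to 2.93). By TPM, Sox17 was the most abundant of the 10 genes on DMSO day 4, although the longer Sox4 had more counts there, at 10009. The Sox17 level was 4.96 times that of Sox2 on DMSO day 4, whereas Sox2 exceeded Sox17 by 198 times on DMSO day 3 and by 53.2 times with C2 ceramide.

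The gene lies on chromosome 1 from 4490931 to 4497354, and the annotation gives it 8 transcripts, while each of the other 9 genes has 1. On DMSO day 4, 5 of the 8 transcripts had at least 1 TPM. ENSMUST00000116652, of 4 exons and 1512 nucleotides, was at 97.2 TPM, or 38.3% of the gene. ENSMUST00000191939, a short coding model of 840 nucleotides, was at 90.5 TPM (35.7%), and ENSMUST00000195555, of 1977 nucleotides, at 45.9 TPM (18.1%). ENSMUST00000027035 and the retained-intron model ENSMUST00000192505 were at 13.5 and 6.23 TPM. With C2 ceramide, ENSMUST00000116652 was at 1.60 TPM, or 70.8% of the gene, and ENSMUST00000191939 at 0.279 TPM (12.3%), from 57 and 5 counts. Counting the 7 coding transcripts alone, Sox17 was at 0.515, 247.5 and 2.14 TPM. These models overlap, so the split between them is an estimate, and the 19 counts of DMSO day 3 and 86 counts of C2 ceramide leave it coarse. Gm37587, a noncoding gene on the opposite strand that overlaps the Sox17 start, had 0, 23 and 0 counts, and since the library kit does not mark strand, reads in the shared stretch cannot be told apart.

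**Figure D3:**
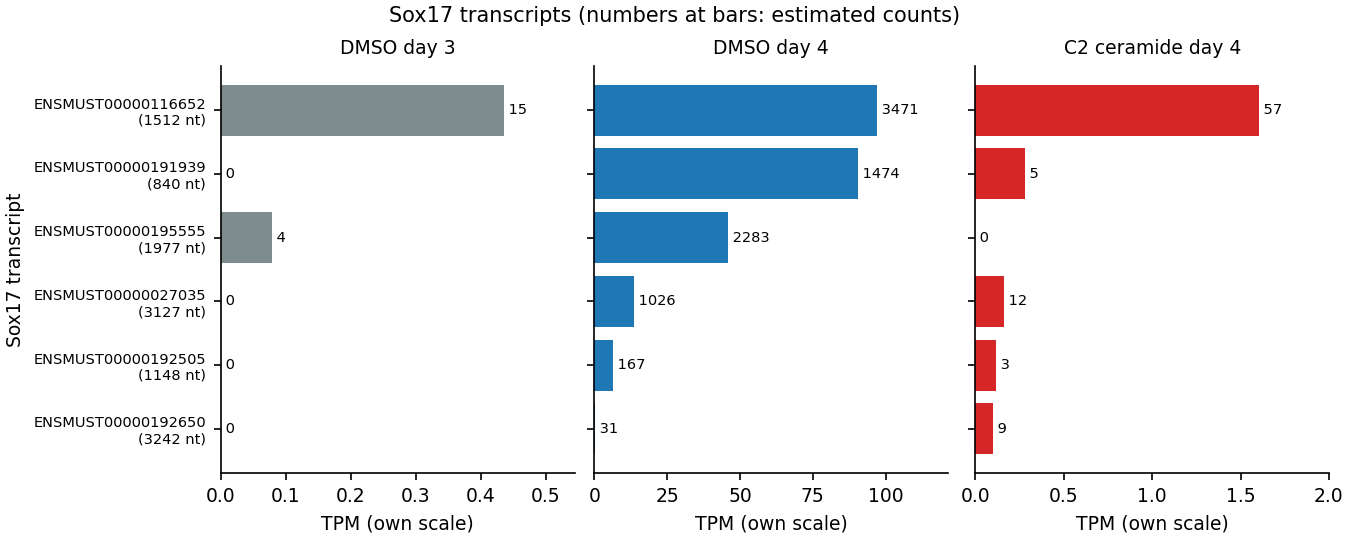
Level of 6 Sox17 transcripts with any TPM (horizontal, TPM, a different scale in each panel) in the 3 libraries, with the estimated counts written at the bars. ENSMUST00000116652 leads in every panel, and ENSMUST00000191939 comes close to it on DMSO day 4, at 90.5 against 97.2 TPM.

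Sox7 and Sox18, which act with Sox17 in blood vessels, did not follow it. Sox7 was at 0.255, 0.108 and 0.805 TPM, from 23, 10 and 75 counts, so DMSO day 4 was the lowest and C2 ceramide the highest of the libraries. Between the DMSO days its log2 ratio was −1.24 (interval −2.47 to −0.11), and C2 ceramide against DMSO on day 4 gave 2.90 (interval 1.94 to 4.02), the opposite direction to Sox17 in both. C2 ceramide against DMSO day 3 gave 1.66 (interval 0.97 to 2.40). Sox18 was at 0.558, 0.272 and 0.418 TPM, from 22, 11 and 17 counts. Between the day 4 libraries its log2 ratio was 0.62, with an interval from −0.56 to 1.86, so no difference in Sox18 was detectable at this depth. Between the DMSO days it was −1.04 (interval −2.23 to 0.07), past the 2-fold threshold but with an interval that includes 0. Without Sox17, the SoxF sum turned direction, with a log2 ratio of −1.10 between the DMSO days and of 1.69 for C2 ceramide against DMSO on day 4. Sox7 spans 2 exons on chromosome 14 from 63943673 to 63950732, and Sox18 spans 2 exons on chromosome 2 from 181669836 to 181671640.

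**Figure D4:**
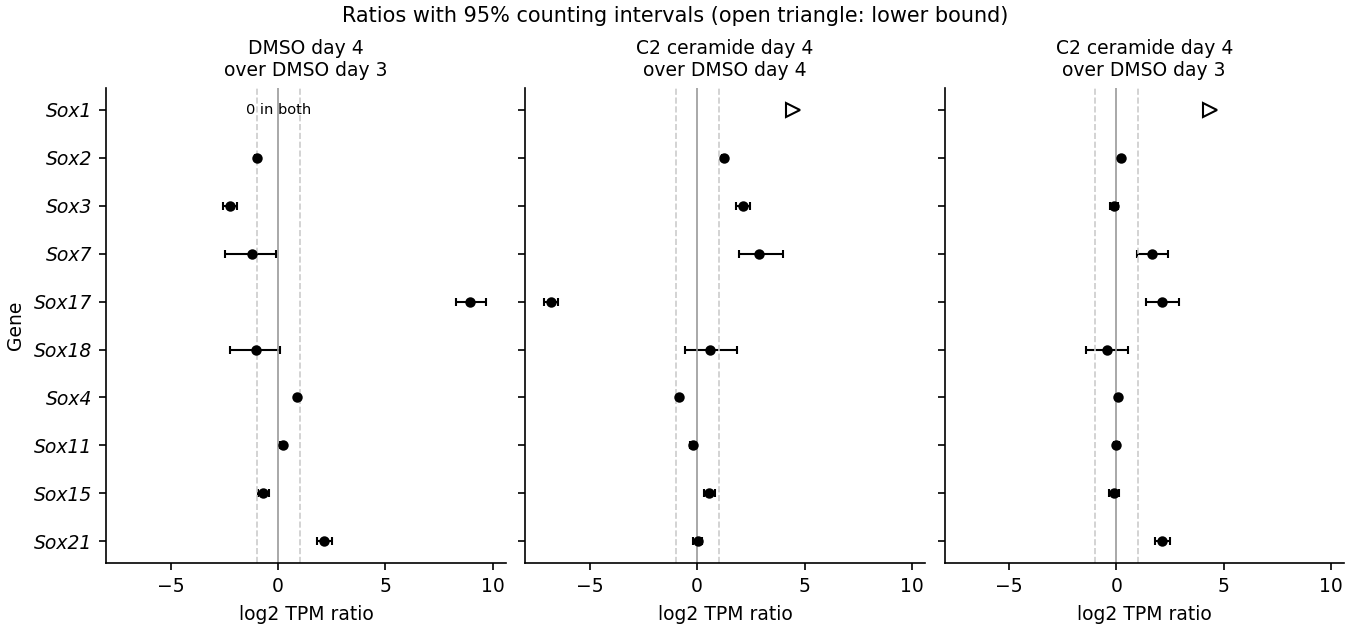
Log2 TPM ratio of each SOX gene (horizontal) in the 3 comparisons, with 95% counting intervals as bars, an open triangle for a lower bound, and dashed lines at 2-fold. Sox17 lies at 8.94 in the left panel and −6.81 in the middle panel, and Sox7 lies on the other side of 0 in both.

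The SoxC gene Sox4, active in progenitors of many tissues, moved with Sox17 in direction but by far less. Levels were 43.0, 79.9 and 44.9 TPM, from 5260, 10009 and 5616 counts, and by TPM it stood second among the 10 genes in each library. DMSO day 4 was above both other libraries, with a log2 ratio of 0.90 (interval 0.85 to 0.94) to DMSO day 3, while C2 ceramide against DMSO on day 4 gave −0.83 (interval −0.88 to −0.79), neither past 2-fold. C2 ceramide against DMSO day 3 gave 0.06 (interval 0.01 to 0.12). Sox11, its partner in neuronal precursors, was at 4.08, 4.70 and 4.12 TPM, from 871, 1025 and 900 counts. The largest of its log2 ratios, between the DMSO days, was 0.20 (interval 0.07 to 0.34). Sox4 exceeded Sox11 by 10.5, 17.0 and 10.9 times. Sox4 and Sox11 are single-exon genes on chromosomes 13 (28948919 to 28953713) and 12 (27334264 to 27342574).

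Sox15, a gene of ES cells whose protein can bind the same sites as Sox2, was at 18.3, 11.4 and 16.9 TPM, from 316, 203 and 304 counts. Its lowest value, too, was that of DMSO day 4, with a log2 ratio of −0.68 (interval −0.95 to −0.43) to DMSO day 3, and C2 ceramide against DMSO on day 4 gave 0.57 (interval 0.30 to 0.83). Sox15 has 2 exons on chromosome 11 (69655314 to 69656727), and its end overlaps Mpdu1 on the opposite strand, which had 2399, 2907 and 3474 counts. Sox21 was low on day 3 and alike in both day 4 libraries, at 0.846, 3.72 and 3.76 TPM, from 82, 370 and 374 counts. Set against DMSO day 3, DMSO day 4 gave a log2 ratio of 2.14 (interval 1.79 to 2.50) and C2 ceramide one of 2.15 (interval 1.80 to 2.51). The ratio between the day 4 libraries was 0.016 on the log2 scale, with an interval from −0.20 to 0.23, so a difference was not detectable beyond counting error. Sox21 is a single-exon gene on chromosome 14 (118233232 to 118237030) and overlaps Gm4675, a noncoding gene of the opposite strand with 3, 46 and 22 counts.

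The 10 genes described so far made up 84.9%, 93.3% and 84.5% of the TPM of the family, and the other 10 SOX family genes the rest. Of these, 9 had at least 10 counts in a library and Sry had none. Sox13, a SoxD gene, was at 20.0, 17.9 and 24.1 TPM, and Sox12, the third SoxC gene, at 9.61, 6.53 and 10.4 TPM, and neither passed 2-fold. Sox9, a SoxE gene of endoderm, cartilage and neural crest, was at 1.35, 4.25 and 1.60 TPM, from 140, 451 and 169 counts. Between the DMSO days its log2 ratio was 1.65 (interval 1.38 to 1.94), and C2 ceramide against DMSO on day 4 gave −1.41 (interval −1.67 to −1.15), the same directions as Sox17. Sox5, Sox6, Sox8, Sox10, Sox14 and Sox30 had at most 23 counts in any library. Sox14, the other SoxB2 gene, was at 19, 2 and 8 counts in the order of the libraries.

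Genes that mark the tissues in which SOX factors act were counted from 7 lists. Of 20 genes of the neural plate and neural progenitors, 17 had at least 10 counts in a library, and with C2 ceramide against DMSO on day 4, 6 were called higher, 2 lower and 9 neither, with a median log2 ratio of 0.06, where 9.97% of all genes were higher and 12.3% lower. The named members with the largest differences were Rax of the eye field at 1.34, 0.096 and 0.621 TPM, Gbx2 of the anterior hindbrain at 2.37, 2.75 and 17.2 TPM, En2 of the midbrain at 1.79, 0.324 and 1.54 TPM, and Lhx2 of the forebrain at 0.462, 0.309 and 1.05 TPM. Each of these was higher in the C2 ceramide library than in the DMSO library of day 4, whereas the list's genes called lower were Fabp7, a fatty acid binding protein gene of radial glia, at 1.51, 4.22 and 1.59 TPM, and Six3 of the forebrain and eye, at 0.101, 1.78 and 0.785 TPM. Of 12 genes of neuronal differentiation, 9 passed the count filter, with 2 called higher and 1 lower, against the same background. The gene called lower was Dcx, at 0.059, 0.342 and 0.086 TPM, from 6, 20 and 15 counts. Tubb3, which encodes the neuronal β-tubulin III, was at 6.93, 3.69 and 16.5 TPM, and the day 4 libraries differed by 2.16 on the log2 scale (interval 1.93 to 2.40). Neurod1, a proneural gene, was at 1.03, 0.220 and 0.799 TPM. For Map2, which encodes a microtubule protein of dendrites, the values were 1.90, 1.78 and 1.17 TPM, from 210, 145 and 147 counts. The day 4 libraries thus had near equal Map2 counts, and its lower TPM with C2 ceramide comes from the scaling for transcript length. The RNA-binding protein gene Elavl4 was at 0.381, 0.881 and 0.498 TPM, from 13, 54 and 43 counts. The proneural genes Neurog1 and Neurog2 had 0 counts in every library.

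Most definitive endoderm genes moved with Sox17. All 14 passed the count filter, 12 were called higher in the DMSO day 4 library than a day earlier, with a median log2 ratio of 4.35, against 12.8% of all genes. In the C2 ceramide library 12 were called lower than in its DMSO partner of day 4, with a median of −4.71, against 12.3% of all genes. Of the rest, 1 lay within 2-fold, and Sh3gl2, an endophilin gene, was called higher, at 5.18, 2.93 and 6.72 TPM. Cer1, a secreted Nodal antagonist of anterior endoderm, was at 0.023, 330.9 and 0.564 TPM, and Lhx1, a homeobox gene of the organizer, at 0.101, 139.4 and 0.909 TPM. Cxcr4, a chemokine receptor of definitive endoderm, was at 0.091, 9.01 and 0.066 TPM, from 4, 354 and 3 counts. The pioneer factor gene Foxa1 had 14, 334 and 0 counts, so C2 ceramide was at least 112-fold lower than DMSO on day 4 against the floor of 3 counts. Relative to DMSO day 3, C2 ceramide gave 5 genes of this list called higher, 3 lower and 6 neither. Of all genes, 11.2% were called higher and 9.39% lower in that comparison.

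Sox17 and Sox7 are also made in visceral and primitive endoderm, and the genes of that tissue were less uniform. Of 16 genes, DMSO day 4 had 10 called higher and none lower against DMSO day 3, where 12.8% and 9.45% of all genes were called. Some of the 10 rest on few counts in DMSO day 3 and DMSO day 4: Afp had 2 and 16, Apoa1 6 and 16 (interval −0.05 to 3.01), and Apob 22 and 23. The Apob call comes from the scaling for transcript length. Others had more, as Pdgfra with 42 and 1656. With C2 ceramide 7 were called lower and 1, the receptor gene Cubn at 16, 15 and 44 counts, was called higher, with a median log2 ratio of −0.72 and a background of 12.3% and 9.97%. Of the 7, several had few counts in DMSO day 4 and C2 ceramide: Ttr 10 and 5 (interval −2.92 to 0.66), Apoa1 16 and 4, Apob 23 and 7, and Hnf4a 30 and 17. Pdgfra, Spink1 and Lama1 were the others called lower and had more counts. The plasma protein genes Afp, Ttr and Apoa1, which define visceral endoderm, were under 1 TPM in the 3 libraries, while Dab2, an endocytic adaptor gene of this tissue, was at 7.70, 9.21 and 15.5 TPM. The summed level of the list, 2132, 1716 and 3260 TPM, came mostly from Apoe, at 1948, 1471 and 2875 TPM, which is not particular to endoderm. Pdgfra, shared by primitive endoderm and mesoderm, was at 0.216, 10.1 and 0.318 TPM, Spink1, a trypsin inhibitor gene, at 1.43, 15.3 and 1.29 TPM, and Lama1, which encodes a basement membrane laminin, at 0.273, 2.32 and 0.941 TPM. The part of visceral endoderm cells in the Sox17 and Sox7 values was not tested.

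Of 16 genes of hemangioblast and endothelium, the setting of Sox7 and Sox18, 13 passed the count filter. With C2 ceramide against DMSO on day 4, 5 were called higher, 5 lower and 3 neither, against 9.97% of all genes higher and 12.3% lower. Kdr, the VEGF receptor of the earliest vascular precursors, was at 0.017, 12.1 and 0.964 TPM, Flt1, a second VEGF receptor, at 3.97, 24.2 and 2.84 TPM, and Etv2, which specifies these precursors, at 6.84, 15.0 and 4.39 TPM. These had their highest level on DMSO day 4, where Sox7 and Sox18 had their lowest. Gata2, a hematopoietic factor gene, was at 0.934, 0.442 and 1.49 TPM, from 32, 45 and 146 counts. Between the DMSO days its TPM fell while its counts rose, so that direction comes from the scaling for transcript length. Genes of formed endothelium were mixed. Cdh5 was at 5, 7 and 1 counts, Tie1 at 0, 9 and 1, and Erg at 0, 0 and 2. Pecam1, also made in ES cells, was at 7.53, 4.66 and 9.68 TPM, Egfl7 at 70.4, 63.7 and 85.7 TPM, and the receptor gene Tek at 9, 40 and 102 counts.

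Among 12 POU and pluripotency genes, 4 were lower and none higher between the DMSO days, where the background was 9.45% and 12.8%. C2 ceramide against DMSO on day 4 gave 4 called higher and 1 lower, with a median log2 ratio of 0.84 and a background of 9.97% and 12.3%. Pou3f1, a POU factor gene of the late epiblast and neural tissue, was at 97.2, 20.7 and 73.4 TPM, with log2 ratios of −2.23 (interval −2.30 to −2.16) and 1.82 (interval 1.75 to 1.90) in these comparisons. Klf4 and Esrrb, genes of the naive state, were at 3.53, 3.33 and 10.8 TPM and at 6.60, 4.26 and 11.0 TPM. Tdgf1, which encodes the Nodal co-receptor Cripto, was the gene called lower, at 469.2, 697.2 and 242.2 TPM. Of 8 trophoblast genes, 7 passed the count filter, with none called higher and 2 lower with C2 ceramide, against the same background. Hand1, also a gene of extraembryonic mesoderm, was at 0.149, 6.61 and 0.347 TPM, Cdx2, also a gene of the posterior embryo, at 0.945, 7.68 and 2.79 TPM, and Elf5, which defines trophoblast, had at most 1 count. Krt18, a simple keratin gene, was at 215.7, 551.6 and 392.9 TPM, and Ascl2 at 6.32, 4.65 and 5.80 TPM.

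**Figure D5:**
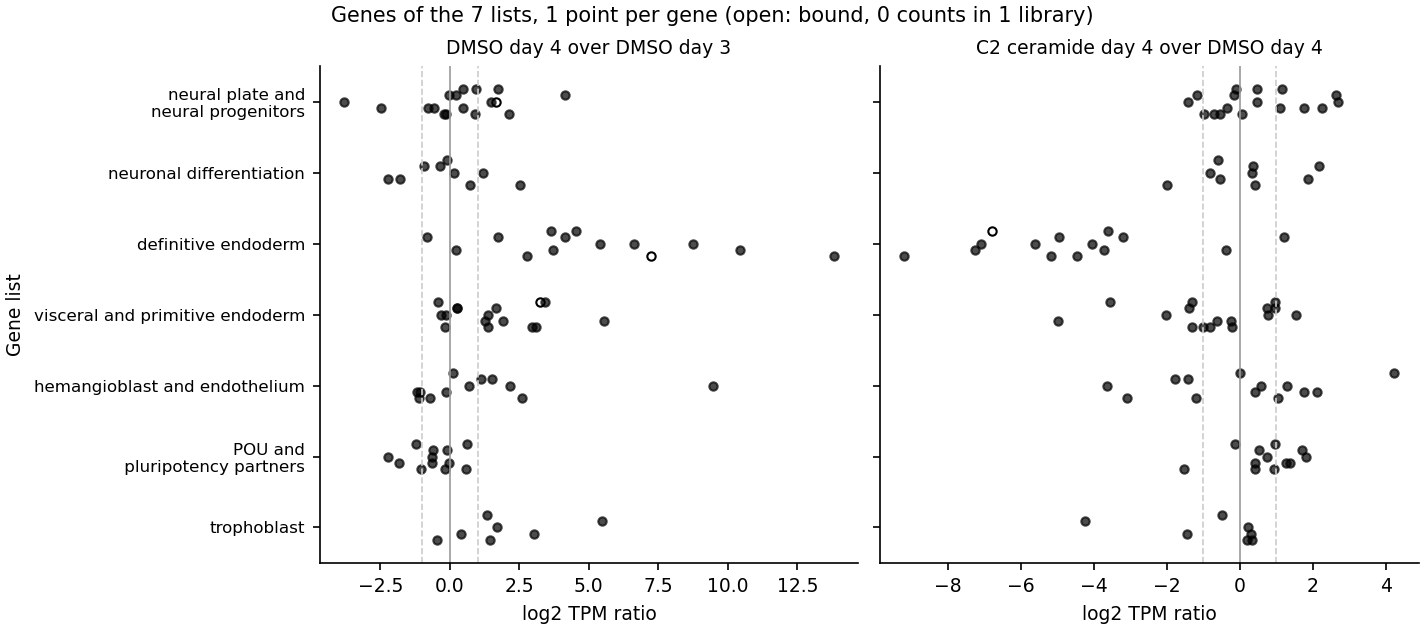
Log2 TPM ratio (horizontal) of each gene of the 7 lists that passed the count filter, for DMSO day 4 over DMSO day 3 (left) and C2 ceramide over DMSO on day 4 (right), 1 point per gene, with open points for bounds against 0 counts and dashed lines at 2-fold. Of the 14 definitive endoderm genes, 12 lie beyond 2-fold to the right in the left panel and 12 beyond 2-fold to the left in the right panel, while the neural genes lie on both sides of 0.

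The genes whose levels ran most like those of a SOX gene were found by the distance between their centred log2(TPM + 0.1) values over the 3 libraries, among at most 11681 protein-coding genes with at least 100 counts in a library. With 3 points per gene, many genes can lie close, so the neighbours are a description. Nearest to Sox17 were Mesp1, a gene of early mesoderm, at 0.035, 83.1 and 0.509 TPM (distance 0.41), followed by Lhx1 (0.53) and Samd3 (0.87). On DMSO day 3, Mesp1 and Samd3 lay under the 0.1 TPM added and Lhx1, at 0.101 TPM, lay close to it. These distances therefore depend in part on the amount added. For Sox2 they were the semaphorin genes Sema3e, at 6.44, 3.12 and 7.57 TPM (0.02), and Sema3c (0.04), followed by the ephrin receptor gene Epha8 (0.04). Sox3 had En2 as its nearest gene (0.11), ahead of the nucleotide receptor gene P2ry2 (0.18) and Uchl1, a ubiquitin hydrolase gene of neurons, at 89.5, 23.1 and 84.1 TPM (0.20). Neighbours of Sox1 are not given, since its values in both DMSO libraries were set by the 0.1 TPM added. For Sox18, whose own counts were at most 22, the nearest were Hsd3b7 (0.01), Shfl (0.02) and Cryl1 (0.03), all within 2-fold between any of the libraries.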

How the data were processed

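Total RNA of EBs was made into cDNA with the SMART-Seq v4 kit, which does not mark strand, and sequenced in 3 libraries, 1 per condition. The authors processed the reads with DRAGEN on GRCm38 with GENCODE M25 and deposited TPM and estimated counts for 55487 genes and 142699 transcripts. The deposited TPM columns sum to 1000000 in each library. The deposited estimated counts are expected counts, are not normalized and are in part fractional, as for Sox4, Sox11, Sox17 and Sox21, and were rounded for intervals. Reads were not used here.

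The 10 members and the gene lists were chosen with earlier results of these data known. TPM ratios and exact conditional (Clopper-Pearson) 95% intervals of the count ratio, shifted to the TPM ratio, were computed with SciPy 1.17.1, pandas 2.3.3 and NumPy 2.4.6 under Python 3.11.15 and checked on simulated data. The simulated counts held counting error alone, so the check covers the computation and not how well the intervals suit these libraries. A TPM of 0 was set to 0.001, genes with at least 10 counts in 1 library were used, and a fold against 0 counts is a bound against 3 counts per library. List genes with at most 3 counts in both libraries compared were not called. Intervals cover counting error only, and since PCR copies are counted separately, the intervals can be too narrow even for that. With 1 library per condition no p-value is given. Figures were drawn with Matplotlib 3.10.9.

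Named are all members, other SOX genes with at least 10 counts (of those with few, the range), overlapping genes, per list at most 4 genes with the largest absolute log2 ratio between the day 4 libraries among those with at least 50 counts, and the 3 nearest protein-coding genes of Sox2, Sox3, Sox17 and Sox18, and, by the rule, of Sox1, whose distances rest on the pseudocount and were left out. Neurog1, Neurog2, Dcx, Afp, Ttr, Apoa1, Apob, Hnf4a, Dab2, Cubn, Sh3gl2, Fabp7, Six3, Cdh5, Tie1, Erg, Pecam1, Egfl7, Tek, Elf5 and Pou5f1 were named after their values were seen. Exon counts are from GENCODE M21 on GRCm38, whose coordinates were the same for the 10 genes. Alternatives were pseudocounts of 0.1 and 1 TPM, counts per 1000000 (CPM), edgeR 4.0.16 TMM factors and DESeq2 1.42.0 size factors on rounded counts in R 4.3.3, thresholds of 1.5-fold and 4-fold, other count filters, and sums without their most abundant member.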

Additional observations from a re-analysis of the deposited data

How the results depend on the processing

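In 139 single-gene ratios under other pseudocounts and scalings, 136 kept their sign, and the 3 that did not were Sox11 ratios near 0 for C2 ceramide day 4 over DMSO day 3 with CPM, TMM and DESeq2 scaling. Sox2 passed 2-fold for DMSO day 4 over DMSO day 3 at log2 ratios of −1.02 with CPM, −1.06 with TMM and −1.05 with DESeq2. Lower calls between the DMSO days ended for Sox7 at −0.77 and −0.18 and for Sox18 at −0.82 and −0.29 with 0.1 and 1 TPM added. Higher calls with C2 ceramide ended with 1 TPM added for Sox1, at 0.61 against either DMSO library, and for Sox7, at 0.70 against day 4 and 0.52 against day 3. No paired analysis was possible because each condition had 1 library. Sox1, Sox7 and Sox18 had fewer than 100 counts in each library, which limits their ratios.

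In the comparisons DMSO day 4 over DMSO day 3, C2 ceramide over DMSO on day 4, and C2 ceramide day 4 over DMSO day 3, the genes past 2-fold numbered 5, 5 and 4. Adding 1 TPM, or requiring 100 counts, gave 3, 3 and 2. The first count was also 3 with 0.1 TPM added, with the interval beyond 2-fold or at 4-fold, and 8 at 1.5-fold. The share of all genes was computed at the main setting only, at 22.3%, 22.3% and 20.6% in the order of the comparisons. Counts under the other settings therefore have no background and describe the members alone. The SoxF sum was at 5.89, −5.31 and 0.58 with 1 TPM added, and without Sox17 at −1.10, 1.69 and 0.59, opposite to the full sum in the first and second comparisons. Its first and second values were 6.99 and −5.58 with CPM, 6.95 and −5.56 with TMM, and 6.96 and −5.56 with DESeq2. Without Sox2 the SoxB1 sum was at −2.25, 2.23 and −0.025. Without Sox4, the sum of Sox4 and Sox11 was at 0.20 and −0.19 in the first and second comparisons. The first value of that sum was 0.79 with CPM, 0.75 with TMM and 0.76 with DESeq2, and the third was 0.0031 with TMM and 0.0061 with DESeq2. Sox15 and Sox21 together, at −0.34, 0.45 and 0.11 in TPM, were at 0.46, 0.23 and 0.70 with CPM, 0.43, 0.25 and 0.68 with TMM, 0.43, 0.25 and 0.69 with DESeq2, and 2.14, 0.016 and 2.15 without Sox15, so the first value changed sign in each of these settings. TPM weights the shorter Sox15 transcript more than CPM does.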
